A study of Zea mays with 18 samples.

Results

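The maize loci named as basic leucine zipper (bZIP) transcription factors were followed through late kernel development in 2 inbred lines, DAN3130 and JI63. A locus was taken as a member when a gene name assigned to it read bZIP transcription factor, with or without a hyphen, and it was not also named opaque. This gave 113 of the 77704 loci in the expression table, and no match had to be dropped for the opaque name. Whole kernels of field-grown plants were sampled at 24 days after pollination (DAP 24), at DAP 35 and as mature kernels, when all plants had turned yellow. RNA was sequenced from 3 libraries of each line and stage, 18 in all. DAN3130 traces to an American hybrid and JI63 to a cross between 2 crosses, and the study chose them because their mature kernels differ in folate.

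A bZIP protein binds DNA through a basic region and pairs with a second bZIP protein through the adjoining leucine zipper, and many of the sites it recognises have an ACGT core, as in the G-box. In seeds the family is best known for factors that act downstream of abscisic acid (ABA) during maturation and drying, and for opaque2, which activates zein storage protein genes in the endosperm. Other members act in the unfolded protein response of the endoplasmic reticulum, in sugar and light signalling and in floral development. Most of the loci described here carry only a family number, and a role is given below only where one is well established.

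The 18 libraries held between 9428728 reads in loci (DAN3130 mature kernels, replicate 2) and 133264978 (JI63 DAP 35, replicate 1). Values below are normalised counts, in which 1 read was worth between 0.174 and 3.54. Normalised totals over all loci lay between 28702835 and 52884044 in the 6 mature libraries, against 22662777 to 28947415 in the 12 immature ones. The paper lists a smaller uniquely placed part of the mapped reads in each mature library than in any immature one. What these differences do to comparisons with mature kernels was not tested, beyond the other scalings given below. Summed zein and starch genes, which mark starchy endosperm, lay between 1924 and 26014 in DAN3130 mature kernels and between 462 and 3072 in JI63 mature kernels, against 201914 to 1796844 in the 12 immature libraries. Oleosin1, a coat protein of the oil bodies of embryo and aleurone and the one gene of that list with more than a trace of counts, lay between 293685 and 2062156 in the 6 mature libraries and between 113458 and 383262 in the immature ones. Markers of the basal endosperm transfer layer summed to at most 121 in mature libraries, against 147 to 8807 in immature ones, and markers of green tissue to at most 297 in any library. In whole kernels, fewer cells of a type and less RNA per cell cannot be told apart. Replicate 2 of JI63 on DAP 35 stood apart from the other 2 libraries of its group: its oleosin1 value was 367020, against 137635 and 113458, and it held the highest of the 3 values for 62 of the 87 tested bZIP loci. Its normalised total over all loci was 28947415, against 23118375 and 22662777. The share of all tested loci highest in this library was not computed, so the 62 are not read as a trait of the family. The spread between replicates, as the root mean square SD of log2 values over tested bZIP loci, was 1.63 in DAN3130 mature kernels and 0.96 in JI63 mature kernels, and between 0.40 and 0.77 in the 4 immature groups.

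The 113 loci lay on all 10 chromosomes, with between 8 (chromosome 10) and 16 (chromosome 1) on each. A mean above 10 normalised counts over the 18 libraries was reached by 87 loci, which were tested. The other 26 included 4 without a read in any library, bZIP56, bZIP59, bZIP66 and bZIP118, and the highest mean among the 26 was 9.37 (bZIP16). Longest assembled isoforms had a median length of 1844 bases in the tested loci and 626 bases in the untested ones. Together the members held between 0.145% and 0.212% of all normalised counts in a library. That share was 0.193% to 0.212% in DAN3130 mature kernels, against 0.150% to 0.155% on DAP 35 and 0.155% to 0.160% on DAP 24 in that line. In JI63 mature kernels it was 0.163% to 0.197%, against 0.145% to 0.155% on DAP 35 and 0.1815% to 0.1954% on DAP 24, so that the mature and DAP 24 libraries of JI63 overlapped. Intron counts were listed for 61 members and were low, with a highest mean of 32.5 normalised counts. Of the tested loci, 5 had more than 1 assigned gene name or touched 2 or more annotated genes, antisense genes included (bZIP37, bZIP102, bZIP41, bZIP28 and bZIP73). Their counts may hold reads of a neighbour.

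Per kilobase of isoform, bZIP transcription factor60 (Zm00001d046718, chromosome 9, 103267979 to 103270103) had the highest mean level, 2168 normalised counts per kilobase over the 18 libraries. This gene is the maize counterpart of the factor whose mRNA is spliced by IRE1 when the endoplasmic reticulum is stressed. It is a different locus from bZIP60 (Zm00001d015153, chromosome 5, 77125900 to 77128035). Next in order came bZIP104 (Zm00001d015421, chromosome 5, 89376383 to 89379344) with 2042, bZIP84 (Zm00001d053988, chromosome 4, 244691086 to 244692165) with 1463, bZIP91 (Zm00001d007042, chromosome 2, 220735632 to 220738913) with 1334, bZIP75 (Zm00001d012296, chromosome 8, 172051406 to 172056127) with 1141 and bZIP7 (Zm00001d020938, chromosome 7, 137232926 to 137243079) with 1109 normalised counts per kilobase. All coordinates are in the AGPv4 assembly of line B73, as the table gives them. The place of bZIP84 rests on JI63 mature kernels, with 6461 to 9534 normalised counts there and at most 1977 in any other library. The order changed with stage: bZIP transcription factor60 had the highest group mean per kilobase in all 4 immature groups, bZIP104 in DAN3130 mature kernels (5018, against 4076 for bZIP transcription factor60) and bZIP84 in JI63 mature kernels (7056, against 4309 for bZIP104). Some members lie close together, and the nearest pair is bZIP47 (Zm00001d021189, chromosome 7, 145424895 to 145430539) and bZIP22 (Zm00001d021191, chromosome 7, 145445140 to 145450501), 14.6 kb apart. Whether reads were shared between similar members was not checked, since no sequences were used here.

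**Figure D1:**
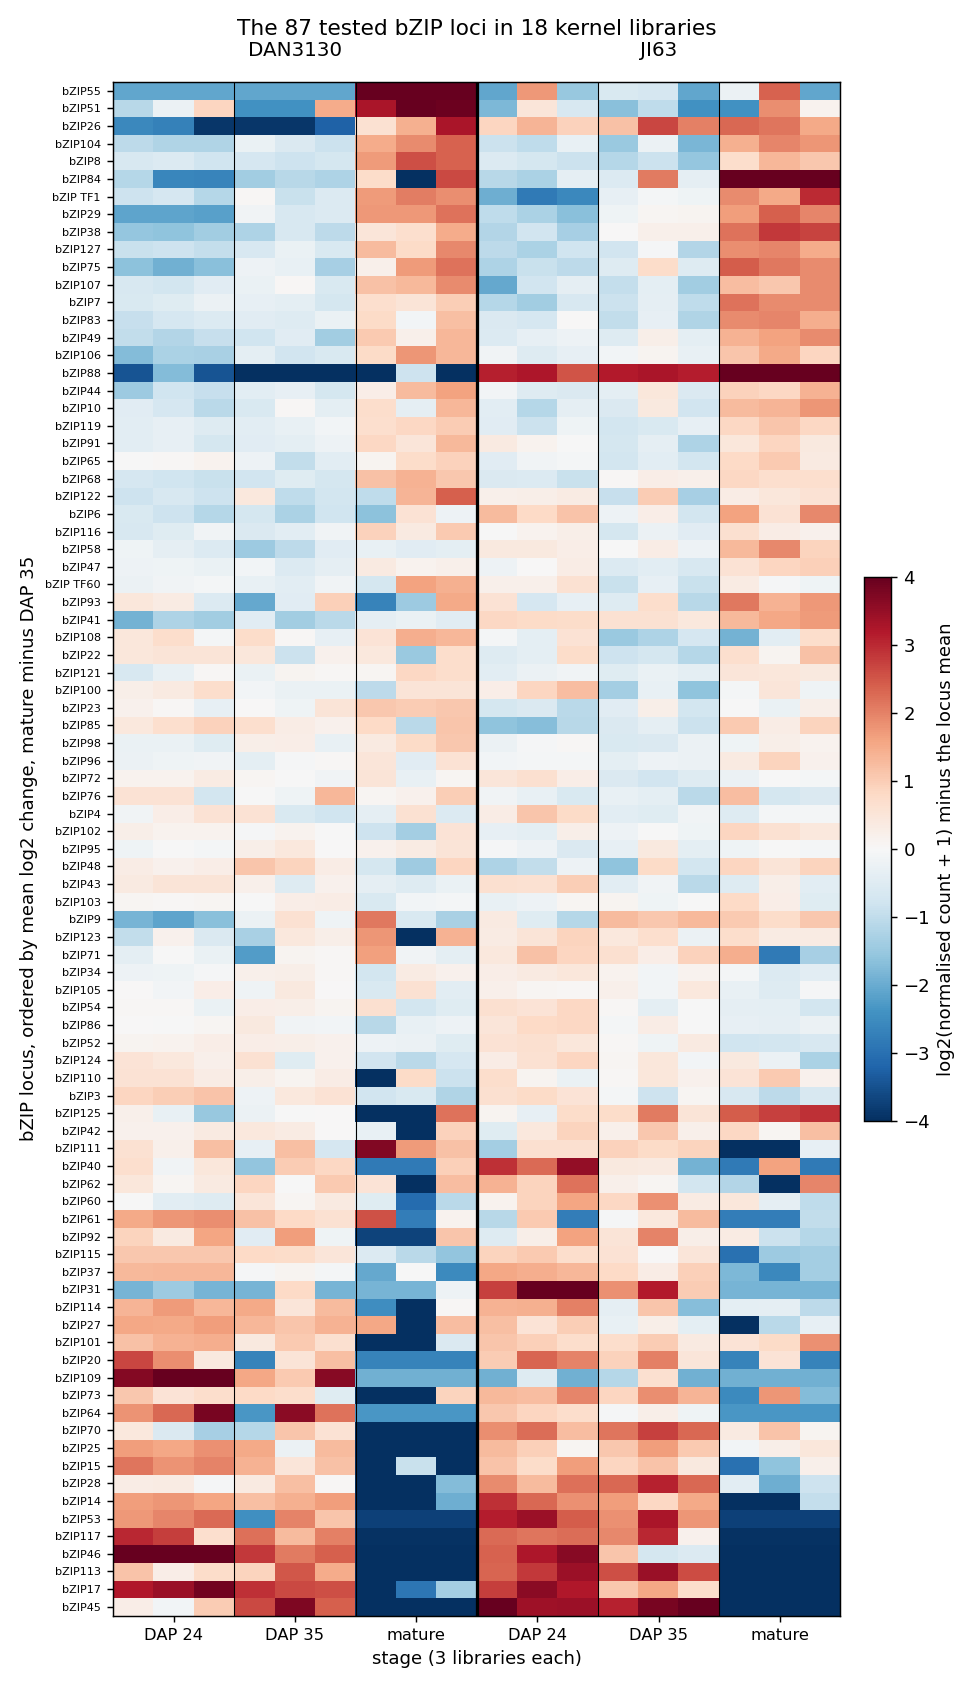
Heat map of the 87 tested bZIP loci (rows, ordered by the mean log2 change between DAP 35 and maturity) in the 18 libraries (columns, 3 for each stage of DAN3130 on the left and JI63 on the right). Colour gives log2(normalised count + 1) minus the mean of the locus, and the mature libraries stand out at the top, where bZIP55 is high in DAN3130 mature kernels, and at the bottom, where bZIP45, bZIP46 and bZIP113 have no reads in any of the 6 mature libraries.

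The first question of the design is which genes change with development within a line. Between DAP 35 and maturity 25 bZIP loci were higher and 22 lower in DAN3130 mature kernels, out of 87 tested, where 19.2% of all tested loci were higher and 31.5% lower. In JI63 mature kernels 29 were higher and 15 lower, where 17.8% of all tested loci were higher and 27.8% lower. Calls rest on a limma fit to log2(normalised count + 1) over 29191 loci, with the Benjamini-Hochberg adjusted p below 0.05, so fold changes of low genes are understated. The median log2 fold change of the 87 loci was -0.03 in DAN3130 and 0.35 in JI63, and that of all tested loci -0.43 in DAN3130 and -0.36 in JI63. The split of directions depended on the scaling. With library totals set equal, the median of all tested loci became -0.91 in DAN3130 and -1.23 in JI63. The bZIP calls then became 20 higher and 34 lower in DAN3130, where 13.5% and 40.2% of all tested loci were called in those directions, and 12 higher and 31 lower in JI63, where 8.23% and 44.9% were, of 89 bZIP loci tested. Relative to the median of all tested loci, the median of the bZIP loci was 0.40 higher in DAN3130 and 0.71 higher in JI63 as deposited, and 0.42 and 0.63 higher with totals set equal. With a variance for each group in place of a shared one, 28 loci were called in DAN3130, where 29.5% of all tested loci were.

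**Figure D2:**
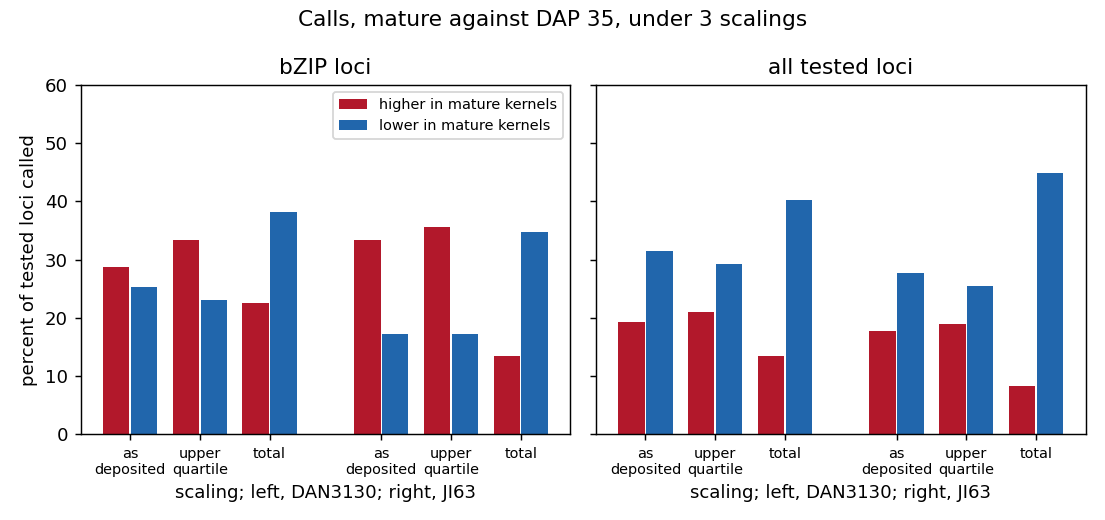
Bars give the percentage of tested loci called higher (red) or lower (blue) in mature kernels than on DAP 35, for bZIP loci (left panel) and all tested loci (right panel), in DAN3130 (left 3 pairs) and JI63 (right 3 pairs), under the deposited scaling, equal upper quartiles and equal library totals. In JI63 33.3% of bZIP loci were higher and 17.2% lower as deposited, and 13.5% higher and 34.8% lower with totals set equal.

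A set of 19 of the 87 loci was higher at maturity in both lines as deposited, where 11.3% of all tested loci were. With library totals set equal 10 of the same 19 were, where 5.54% of all tested loci were. Under that scaling bZIP91, bZIP106, bZIP83, bZIP119, bZIP65, bZIP68, bZIP47, bZIP44 and bZIP116 dropped out of the set. The 19 were bZIP104, bZIP91, bZIP75, bZIP7, bZIP127, bZIP29, bZIP106, bZIP83, bZIP49, bZIP119, bZIP65, bZIP transcription factor1, bZIP68, bZIP38, bZIP47, bZIP8, bZIP44, bZIP116 and bZIP107. Their log2 fold changes ran between 0.57 and 2.95 in DAN3130 (median 1.73) and between 0.55 and 2.89 in JI63 (median 2.00). Under every alternative tried, 7 of them were called higher in both lines: bZIP104, bZIP127, bZIP29, bZIP49, bZIP transcription factor1, bZIP38 and bZIP8. In 17 of the 19, replicate 2 was the highest of the 3 JI63 libraries on DAP 35. The share over all tested loci was not computed, so the 17 are not read as a trait of the family. Without replicate 2 the same 19 were called. The number called in JI63 was 44 with that library and 44 without it in this step, and 10 with it and 9 without it between DAP 24 and DAP 35.

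Among them bZIP104 had the highest mean level per kilobase. In DAN3130 its replicates held 1086, 961 and 964 normalised counts on DAP 24, 1861, 1476 and 1232 on DAP 35 and 6189, 8259 and 11310.1 in mature kernels. In JI63 they held 1217, 1107 and 1797 on DAP 24, 797, 1892 and 625 on DAP 35 and 5919, 8612 and 7585 in mature kernels. Every mature library lay above every immature one, and the log2 fold change between DAP 35 and maturity was 2.47 ± 0.34, adjusted p = 2.26e-05 in DAN3130 and 2.89 ± 0.34, adjusted p = 5.91e-06 in JI63 (± SE, 3 libraries a group, here and below). Without bZIP104 the members still held 0.1715% to 0.1845% of all counts in DAN3130 mature kernels, against 0.1453% to 0.1489% on DAP 35 and 0.1508% to 0.1563% on DAP 24. In JI63 mature kernels they held 0.1513% to 0.1771%, against 0.1411% to 0.1479% on DAP 35 and 0.1771% to 0.1884% on DAP 24.

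With a shared variance, bZIP29 (Zm00001d034571, chromosome 1, 296596877 to 296600683) was the one member called higher at both steps in both lines. DAN3130 libraries held 194, 194 and 185 normalised counts on DAP 24, 766, 540.2 and 579 on DAP 35 and 2841, 2787 and 3841 at maturity, and JI63 libraries held 419.8, 349 and 264 on DAP 24, 752, 896 and 909 on DAP 35 and 2707, 4476 and 3257 at maturity. No library of a later stage overlapped one of an earlier stage within a line. The log2 fold change between DAP 24 and DAP 35 was 1.70 ± 0.23, adjusted p = 0.000266 in DAN3130 and 1.33 ± 0.23, adjusted p = 0.00177 in JI63, and that between DAP 35 and maturity was 2.33 ± 0.23, adjusted p = 8.72e-07 in DAN3130 and 2.00 ± 0.23, adjusted p = 4.63e-06 in JI63.

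bZIP75 reached 1820.0, 5139 and 7028 normalised counts in DAN3130 mature kernels, against 1368, 1266 and 622 on DAP 35, and 8391, 6805 and 5813 in JI63 mature kernels, against 1105, 2605 and 1103 on DAP 35. Replicate 1 of DAN3130 mature kernels was the lowest of the 6 mature libraries, and replicate 2 of JI63 on DAP 35 the highest of the 12 immature ones. The log2 fold changes were 1.98 ± 0.44, adjusted p = 0.00145 in DAN3130, not called when the 2 groups were fitted alone, and 2.23 ± 0.44, adjusted p = 0.000634 in JI63. bZIP127 (Zm00001d031723, chromosome 1, 199502427 to 199506388) held 2945, 2065 and 4628 in DAN3130 mature kernels, against 791, 1024 and 807 on DAP 35, and 4438, 4749 and 3405 in JI63 mature kernels, against 717, 1187 and 547 on DAP 35. It changed by 1.81 ± 0.29, adjusted p = 0.000103 in DAN3130 and 2.42 ± 0.29, adjusted p = 8.04e-06 in JI63, on the log2 scale, and all 6 mature libraries lay above the immature ones.

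bZIP transcription factor1 (Zm00001d043992, chromosome 3, 215850507 to 215866608) came to a like level at maturity by different steps. In DAN3130 it held 216, 240.1 and 172 normalised counts on DAP 24, 395, 206 and 260.3 on DAP 35 and 1250.3, 1569 and 1387 at maturity, and in JI63 98.1, 53 and 63.6 on DAP 24, 307, 364 and 336 on DAP 35 and 1424, 1099 and 3013 at maturity. JI63 thus began lower and rose at both steps, by 2.26 ± 0.35, adjusted p = 0.000868 on the log2 scale and then by 2.32 ± 0.35, adjusted p = 6.82e-05, while DAN3130 rose at the second step, by 2.33 ± 0.35, adjusted p = 5.62e-05. At the first step the DAN3130 value was 0.41 ± 0.35, and the difference between the lines in that step had an adjusted p of 0.0653, so a difference was not called.

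bZIP38 (Zm00001d018571, chromosome 5, 223498968 to 223500209) also rose to maturity in both lines, but to unlike levels. It held 124, 117 and 137 normalised counts on DAP 24, 155, 229.8 and 175 on DAP 35 and 504, 574 and 1019 at maturity in DAN3130, and 159, 210.5 and 144 on DAP 24, 367, 419 and 413 on DAP 35 and 1626, 2584 and 2356 at maturity in JI63. The second step was 1.85 ± 0.29, adjusted p = 7.1e-05 in DAN3130 and 2.42 ± 0.29, adjusted p = 6.56e-06 in JI63, in log2. DAN3130 was lower than JI63 on DAP 35 (-1.11 ± 0.29, adjusted p = 0.00892) and at maturity (-1.69 ± 0.29, adjusted p = 0.000237). bZIP8 (Zm00001d041920, chromosome 3, 143644924 to 143649063) was called at no earlier step, with 200.2 to 239.5 normalised counts in the 6 immature DAN3130 libraries and 119.7 to 243 in those of JI63. It then rose by 2.95 ± 0.27, adjusted p = 3.88e-07 to 1159, 2121 and 1830.3 normalised counts in DAN3130, and by 2.22 ± 0.27, adjusted p = 7.81e-06 to 581, 890.2 and 747 in JI63, and no mature library overlapped an immature one.

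**Figure D3:**
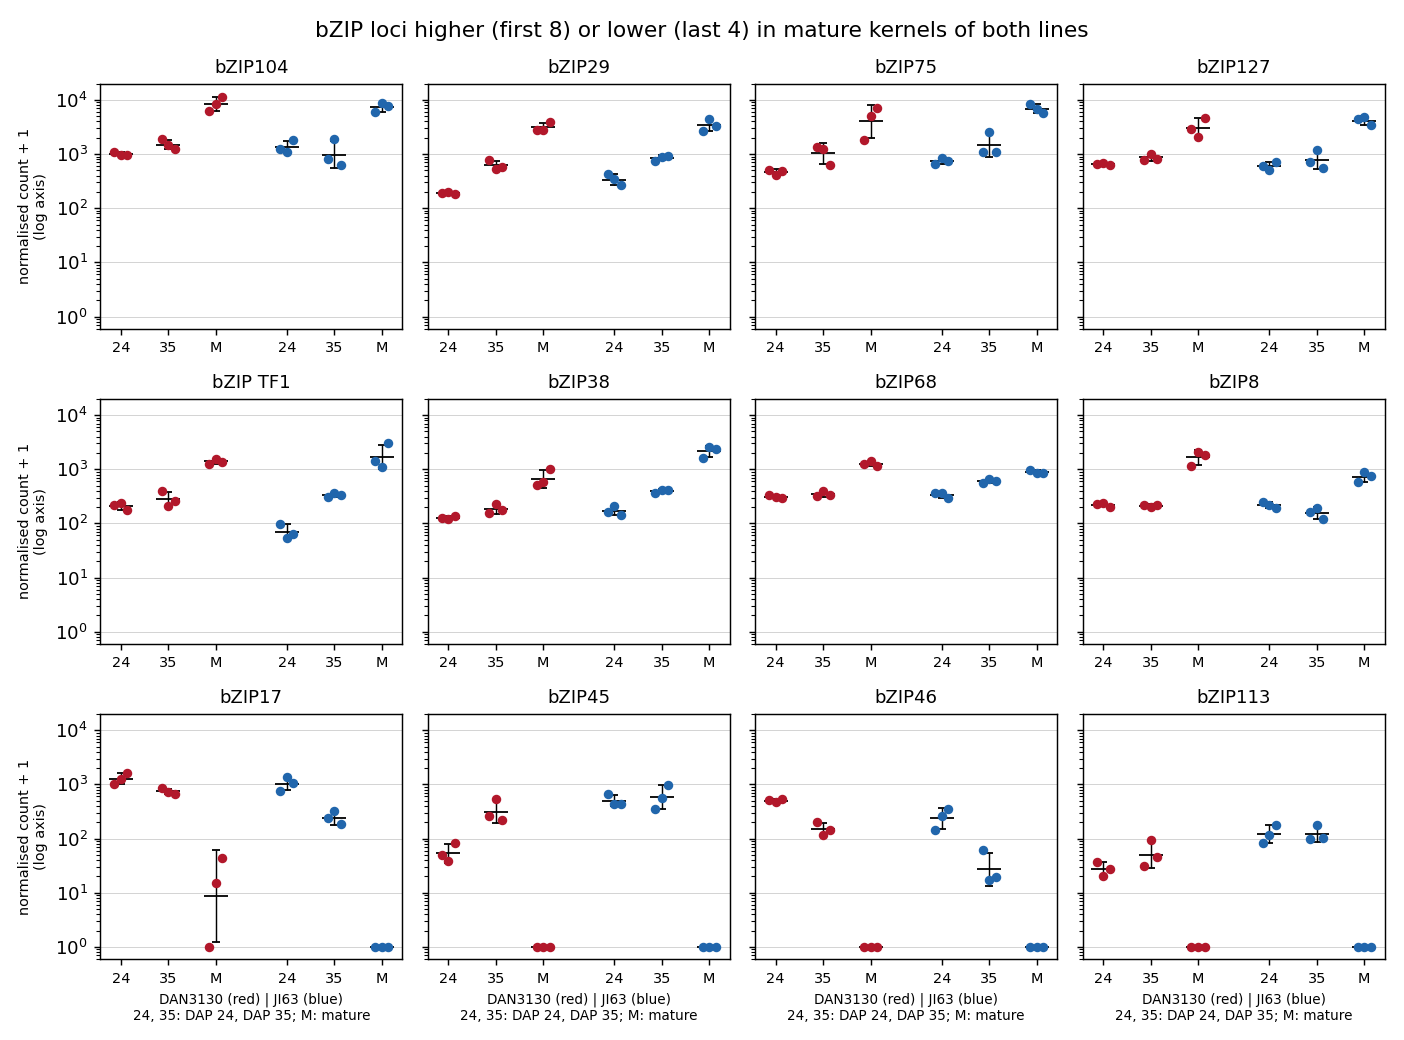
Normalised counts plus 1 (log axis) of 12 bZIP loci in each of the 18 libraries, by stage, DAN3130 in red and JI63 in blue. Points are libraries, and the bar with its whiskers gives the mean ± SD of the log2 values of 3 libraries. The first 8 loci were higher in mature kernels of both lines (with library totals set equal, bZIP68 turned to a log2 fold change of -0.40 in JI63), and the last 4 were lower, with bZIP45, bZIP46 and bZIP113 at 0 in all 6 mature libraries.

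At the other end, 12 of the 87 loci were lower at maturity in both lines, where 18.2% of all tested loci were. With library totals set equal the number was 23, where 28.9% of all tested loci were, and it took in the same 12. These were bZIP52, bZIP37, bZIP17, bZIP115, bZIP45, bZIP46, bZIP28, bZIP113, bZIP14, bZIP117, bZIP53 and bZIP70. Under every alternative tried, 8 of the 12 were called lower in both lines (bZIP17, bZIP115, bZIP45, bZIP46, bZIP28, bZIP113, bZIP14 and bZIP117). Of the 87 tested loci, 7 had no read in any mature library: bZIP45, bZIP46, bZIP113, bZIP117, bZIP53, bZIP109 and bZIP64. For such groups the fold is a bound, computed as if the group held 3 reads in all, and it covers counting error only.

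bZIP17 (Zm00001d046937, chromosome 9, 111794987 to 111797524) had the highest mean of the 12 per kilobase. It held 1040.1, 1242 and 1637 normalised counts on DAP 24, 854, 712 and 675 on DAP 35 and 0, 14.2 and 43.2 at maturity in DAN3130. In JI63 it held 768, 1374 and 1052 on DAP 24, 236, 328 and 182 on DAP 35 and 0, 0 and 0 at maturity. The log2 fold change between DAP 35 and maturity was -6.41 ± 0.90, adjusted p = 2.84e-05 in DAN3130, and the mature level was at least 106.2-fold lower in JI63 (adjusted p = 4.32e-06).

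bZIP45 (Zm00001d030577, chromosome 1, 145543611 to 145545618) first rose in DAN3130, where its replicates held 48.3, 37 and 81.8 normalised counts on DAP 24, 259, 543 and 216 on DAP 35 and none at maturity. In JI63 it was already at 668, 431 and 439.6 on DAP 24 and at 347, 571 and 986 on DAP 35, and had no reads at maturity. The rise in DAN3130 was 2.54 ± 0.53, adjusted p = 0.00812 in log2, and without replicate 2 of DAN3130 on DAP 24 or on DAP 35 it was not called. The mature level was at least 183.5-fold lower in DAN3130 (adjusted p = 1.27e-08) and at least 271.1-fold lower in JI63 (adjusted p = 8.77e-09).

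bZIP46 (Zm00001d006157, chromosome 2, 200048964 to 200051462) was lost by maturity in both lines. Its counts were 505, 465 and 527 on DAP 24, 200.3, 117 and 145 on DAP 35 and none at maturity in DAN3130, and 144, 262 and 352 on DAP 24, 59.7, 16.3 and 18.3 on DAP 35 and none at maturity in JI63. On DAP 35 every DAN3130 library lay above every JI63 library (2.47 ± 0.56, adjusted p = 0.00386). The mature level was at least 83.31-fold lower than that of DAP 35 in DAN3130 and at least 13.42-fold lower in JI63.

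bZIP113 (Zm00001d026398, chromosome 10, 145211405 to 145218613) held 29.8, 91.4 and 44.7 normalised counts in DAN3130 and 97.3, 181 and 100.3 in JI63 on DAP 35, and was at least 29.92-fold lower at maturity in DAN3130 and at least 53.86-fold lower in JI63. bZIP117 was at least 30.13-fold lower in DAN3130 and at least 28.29-fold lower in JI63, and bZIP53 at least 14.7-fold and 31.06-fold lower. The highest library of these 3 genes held 180.7 normalised counts (bZIP113).

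Changes between DAP 35 and maturity were called in 1 line alone for 29 loci, and such a call does not show that the lines differ. Of all tested loci, 19.2% were higher and 31.5% lower in DAN3130, 17.8% and 27.8% in JI63, and 11.3% and 18.2% in both lines. The share of all tested loci called in 1 line alone was not computed, so the 29 are not read as a trait of the family. In DAN3130 alone bZIP transcription factor60, bZIP23, bZIP98, bZIP55, bZIP26 and bZIP51 rose, and bZIP60, bZIP3, bZIP86, bZIP114, bZIP101, bZIP73, bZIP25, bZIP15, bZIP109 and bZIP64 fell. In JI63 alone bZIP100, bZIP84, bZIP6, bZIP96, bZIP10, bZIP58, bZIP85, bZIP41, bZIP121 and bZIP22 rose, and bZIP111, bZIP31 and bZIP20 fell. These lists hold for the deposited scaling. With library totals set equal, bZIP84 alone remained of the JI63 rises, and bZIP55, bZIP26 and bZIP51 of the DAN3130 rises. Of the DAN3130 falls, bZIP60, bZIP3, bZIP86, bZIP25 and bZIP15 were then called lower in JI63 too, and bZIP20 was called lower in both lines. The difference itself, the JI63 change minus the DAN3130 change, was called for 9 of the 87 loci, 4 of them positive and 5 negative, where 13.8% of all tested loci were called. With a variance for each group it was called for 2 (bZIP101 and bZIP26), where 4.59% of all tested loci were, and edgeR called 5, where 6.58% of all tested loci were, 4 of them among the 9 (bZIP7, bZIP25, bZIP68 and bZIP26).

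2 of the 9 were called higher in both lines as deposited, with a larger rise in JI63. bZIP7 held 7851, 6573 and 6494 normalised counts in JI63 mature kernels, against 965, 1372 and 858 on DAP 35, and 2809.6, 2500.4 and 3489 in DAN3130 mature kernels, against 1400.5, 1336 and 1073 on DAP 35. JI63 and DAN3130 mature libraries did not overlap. The log2 fold change was 2.73 ± 0.22 in JI63 and 1.20 ± 0.22 in DAN3130, with a difference of 1.53 ± 0.31, adjusted p = 0.00408. bZIP83 (Zm00001d014795, chromosome 5, 63482618 to 63486525) reached 2606, 2712 and 1923 in JI63 mature kernels and 1188, 652 and 1621 in DAN3130 mature kernels, and its change differed by 1.57 ± 0.44, adjusted p = 0.0277. That difference was not called without replicate 1 or 3 of either line on DAP 35 or replicate 1 or 2 of JI63 mature kernels. Nor was it called with library totals set equal. The rise of bZIP83 in DAN3130 was not called without replicate 3 of DAN3130 mature kernels or with library totals set equal. That rise was also lost with a variance for each group and when the 2 groups were fitted alone.

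bZIP68 (Zm00001d050018, chromosome 4, 60011623 to 60017086), a factor linked to cold tolerance in maize, showed the reverse. Its counts in JI63 were 363, 368 and 291 on DAP 24, 565, 658 and 618 on DAP 35 and 957, 865 and 869 at maturity, and in DAN3130 341, 309.8 and 291 on DAP 24, 315, 388 and 332 on DAP 35 and 1231, 1434 and 1155 at maturity. JI63 had risen by DAP 35 (0.85 ± 0.18, adjusted p = 0.00689 in log2), when its 3 libraries lay above the 3 of DAN3130, and DAN3130 rose after it (1.88 ± 0.18, adjusted p = 6.91e-07). The later change was 0.55 ± 0.18, adjusted p = 0.0209 in JI63 as deposited, and -0.40 with library totals set equal. It was not called without replicate 1 or 3 of JI63 on DAP 35 or replicate 1 of JI63 mature kernels, and the difference between the lines in that change was -1.33 ± 0.25, adjusted p = 0.00274.

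bZIP55 (Zm00001d013172, chromosome 5, 5811446 to 5811943) was high in DAN3130 mature kernels, with 200.3, 170.0 and 410.3 normalised counts. JI63 mature kernels held 2.58, 20.7 and 0, the 6 immature DAN3130 libraries had no reads, and the highest of the 6 immature JI63 libraries was 12.8. The DAN3130 level at maturity was at least 272.9-fold that on DAP 35. The difference between the lines in that change (adjusted p = 0.00595) was not called by edgeR, by DESeq2 or with a variance for each group. bZIP51 (Zm00001d018729, chromosome 7, 3195528 to 3196172) had a like pattern at a lower level, 50.7, 92.1 and 79.9 in DAN3130 mature kernels and 0, 18.6 and 4.87 in JI63 mature kernels, but here the difference in change was not called (adjusted p = 0.186). Both loci passed the filter of a mean above 10 only through DAN3130 mature kernels, with means of 45.6 (bZIP55) and 15.9 (bZIP51). Their calls in that group are therefore not independent of the filter.

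bZIP26 (Zm00001d034199, chromosome 1, 286425311 to 286425868) was nearly silent in immature DAN3130 kernels and rose by maturity. DAN3130 held 1.48, 1.31 and 0 normalised counts on DAP 24, 0, 0 and 0.589 on DAP 35 and 21.7, 39 and 143 at maturity, while JI63 held 25.9, 37 and 27 on DAP 24, 33, 94.4 and 59.2 on DAP 35 and 72.2, 64.2 and 41.4 at maturity. The change to maturity was 0.02 ± 0.71 in JI63 and 5.44 ± 0.71 in DAN3130, and differed by -5.42 ± 0.999, adjusted p = 0.00214.

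For bZIP101 (Zm00001d038311, chromosome 6, 154175962 to 154178485) and bZIP25 (Zm00001d010658, chromosome 8, 123182660 to 123185606) a fall was called in DAN3130 and not in JI63. bZIP101 held 160.0, 184 and 389 normalised counts in JI63 mature kernels and 0, 0 and 72.3 in DAN3130 mature kernels, against 176, 221 and 140.0 in JI63 and 142, 224 and 170.2 in DAN3130 on DAP 35. bZIP25 held 31, 39.3 and 46.2 in JI63 mature kernels and 0, 0 and 1.08 in DAN3130 mature kernels, against 71.1, 109 and 70.6 in JI63 and 98, 28.2 and 82.4 in DAN3130 on DAP 35. The mature JI63 libraries of bZIP25 also lay below those of DAP 35 (-1.07 ± 0.57, adjusted p = 0.143), and with library totals set equal it was called lower in JI63 too. The differences in change were 5.76 ± 1.58, adjusted p = 0.0239 for bZIP101, lost without any of 5 single libraries (replicate 2 of DAN3130 on DAP 35 or at maturity, replicate 1 or 3 of JI63 on DAP 35, replicate 3 of JI63 at maturity), and 4.53 ± 0.81, adjusted p = 0.00172 for bZIP25. For bZIP111 (Zm00001d030995, chromosome 1, 172452583 to 172457478) the mature libraries held 0, 0 and 34.1 in JI63 and 577, 142 and 99.3 in DAN3130, with a difference in change of -6.75 ± 1.60, adjusted p = 0.0109. bZIP31 (Zm00001d031194, chromosome 1, 181836162 to 181836725) is described with the line differences, and its difference in change (adjusted p = 0.0484) was lost under 21 of 29 alternatives.

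**Figure D4:**
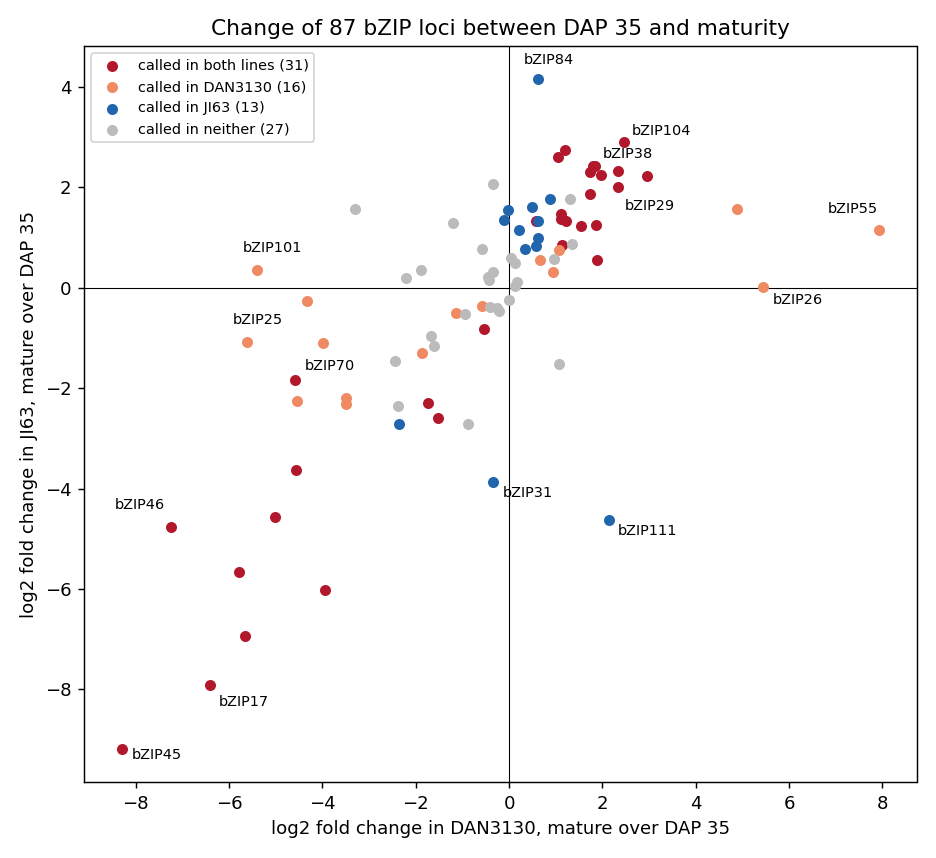
Each point is 1 of the 87 tested bZIP loci, placed by its log2 fold change of mature kernels over DAP 35 kernels in DAN3130 (horizontal) and JI63 (vertical), and coloured by the line in which it was called. The 31 loci called in both lines lie in the upper right (19, of which 10 remained with library totals set equal) and the lower left (12), and bZIP55, bZIP26, bZIP101, bZIP25, bZIP111 and bZIP31 lie off the diagonal. Fold changes of loci without reads in a group depend on the pseudocount of 1.

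bZIP84 varied widely between the mature libraries of DAN3130. It held 531, 7.08 and 1977 normalised counts in DAN3130 mature kernels and 9534, 6461 and 6485 in JI63 mature kernels, against 119, 145 and 133 in DAN3130 and 214, 1345 and 246 in JI63 on DAP 35. All JI63 mature libraries lay above all DAN3130 ones (-5.17 ± 1.34, adjusted p = 0.00693, DAN3130 minus JI63), a call lost when only these 2 groups were fitted. In JI63 the rise was 4.15 ± 1.34, adjusted p = 0.0192, and it was not called without replicate 1 or replicate 3 of DAP 35 or replicate 1 of maturity. In DAN3130 the change was 0.62 ± 1.34 and was not called by limma, while edgeR and DESeq2 both called it higher.

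Between DAP 24 and DAP 35 few members were called in the fit with a shared variance. In DAN3130 2 rose, bZIP29 and bZIP45, and none was lower in the limma fit, where 4.41% of all tested loci were higher and 2.14% lower. At an unadjusted p under 0.05, 6 were lower, edgeR called none lower and DESeq2 called 3. In JI63 4 rose (bZIP29, bZIP transcription factor1, bZIP68 and bZIP38) and 6 fell (bZIP91, bZIP100, bZIP72, bZIP43, bZIP3 and bZIP46), where 4.27% of all tested loci were higher and 4.82% lower. The median log2 fold change of the 87 was 0.00 in DAN3130 and -0.23 in JI63, and that of all tested loci -0.04 in DAN3130 and 0.00 in JI63. The mature libraries, which varied more, set part of the shared variance of this fit. With a variance for each group 13 were called in DAN3130, where 23.4% of all tested loci were, and 25 in JI63, where 24.1% were.

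Among the 6 that fell in JI63, bZIP100 (Zm00001d044940, chromosome 9, 7823935 to 7834292) held 673, 1410.3 and 559 normalised counts on DAP 35, against 2089, 3141 and 4033 on DAP 24 (-1.88 ± 0.40, adjusted p = 0.0073 in log2). In DAN3130 it held 1592, 1434 and 1446 on DAP 35, against 2025, 2222 and 2803 on DAP 24, which was not called (-0.64 ± 0.40). bZIP91 held 1553, 1960.4 and 1069.5 on DAP 35, against 3267, 2785 and 2472 on DAP 24, in JI63 (-0.93 ± 0.23, adjusted p = 0.0191). This fall was not called without replicate 1 or 2 of DAP 24 or replicate 3 of DAP 35. At maturity bZIP91 held 3449.7, 4569 and 3313 in JI63, a rise called as deposited but not with library totals set equal. bZIP72 (Zm00001d008225, chromosome 8, 1785017 to 1795284) held 548, 476 and 576 on DAP 35, against 1146, 1261 and 976 on DAP 24 (-1.08 ± 0.20, adjusted p = 0.00284), and bZIP43 (Zm00001d052725, chromosome 4, 199034864 to 199038928) held 572, 707 and 369.6, against 1203, 1186 and 1523 (-1.29 ± 0.27, adjusted p = 0.00649). In each of these 4 genes the JI63 libraries of DAP 35 lay below those of DAP 24.

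The lines were also compared in this step. The difference between the JI63 change and the DAN3130 change was called for 0 of the 87 loci by limma, where 2.36% of all tested loci were called. At an unadjusted p under 0.05 there were 12. Of the other tools edgeR called 0, where 1.84% of all tested loci were called, and DESeq2 called 6, where 6.47% were. With a variance for each group 13 were called, where 14.7% of all tested loci were.

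The second question is which genes differ between the lines at the same stage. In DAN3130 kernels, relative to JI63 kernels, 5 bZIP loci were higher and 11 lower on DAP 24, where 11.2% of all tested loci were higher and 13.6% lower. On DAP 35, 3 were higher and 8 lower, where 11.3% and 11.9% of all tested loci were. At maturity 9 were higher and 16 lower, where 15.6% and 21.5% were. With library totals set equal the mature split became 17 higher and 12 lower, where 22.3% and 14.4% of all tested loci were called, and the median of all tested loci moved to 0.15 (-0.13 as deposited). With a variance for each group 35, 20 and 11 loci were called on DAP 24, on DAP 35 and at maturity, where 48.4%, 35.6% and 15.2% of all tested loci were.

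At all 3 stages limma called 3 loci lower in DAN3130, bZIP88, bZIP41 and bZIP70. Of all tested loci, 13.6% were lower in DAN3130 on DAP 24, 11.9% on DAP 35 and 21.5% at maturity. The share lower at all 3 stages was not computed, so this count is not read as a trait of the family. bZIP88 (Zm00001d025589, chromosome 10, 123303091 to 123308547) was close to absent from DAN3130, with 1.48, 7.2 and 1.46 normalised counts on DAP 24, 0, 0 and 0 on DAP 35 and 0, 14.2 and 0 at maturity. JI63 held 234, 257 and 154 on DAP 24, 243, 259 and 241 on DAP 35 and 611, 803 and 1239 at maturity. Every JI63 library lay above every DAN3130 library. The difference, DAN3130 minus JI63 in log2, was -5.84 ± 0.87, adjusted p = 8.98e-05 on DAP 24 and -8.42 ± 0.87, adjusted p = 1.5e-06 at maturity, and on DAP 35 the DAN3130 level was at least 259.6-fold lower (adjusted p = 4.32e-06). Reads of both lines were aligned to B73, and whether sequence differences between the lines and B73 enter such values was not tested.

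bZIP41 (Zm00001d034447, chromosome 1, 293289800 to 293313786) differed less but with little spread. DAN3130 held 63.1, 99.5 and 89.1 on DAP 24, 170.4, 90 and 111 on DAP 35 and 183, 195 and 174 at maturity, and JI63 held 417, 402 and 397 on DAP 24, 358, 359.7 and 318 on DAP 35 and 586, 698 and 776 at maturity. No DAN3130 library reached the lowest JI63 library, and the differences were -2.28 ± 0.27, -1.52 ± 0.27 and -1.89 ± 0.27 in log2. The locus is also one of those with more than 1 gene name or annotated gene. bZIP70 (Zm00001d046751, chromosome 9, 104375033 to 104380729) held 27.5, 13.1 and 7.3 on DAP 24, 8.52, 44.3 and 30.6 on DAP 35 and 0, 0 and 0 at maturity in DAN3130, and 74.9, 98 and 48.6 on DAP 24, 91.8, 138 and 102 on DAP 35 and 25.8, 45.5 and 21.9 at maturity in JI63. At maturity bZIP70 was at least 16.81-fold lower in DAN3130, and its difference on DAP 35 was not called by edgeR.

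A pair of low-count loci differed on both immature days. bZIP31 had reads in 2 of the 6 immature DAN3130 libraries, at most 5.38 normalised counts, against 23.2, 67.5 and 85.7 in JI63 on DAP 24 and 12, 31.7 and 6.4 on DAP 35, and had none in JI63 mature kernels. The DAP 35 difference was not called by edgeR or DESeq2, nor without replicate 1 or 3 of DAN3130 or replicate 2 of JI63 on DAP 35. bZIP26 was lower in DAN3130 on both days with the values given above (-4.09 ± 0.71, adjusted p = 0.000372 on DAP 24 and -5.63 ± 0.71, adjusted p = 1.88e-05 on DAP 35). bZIP109 (Zm00001d023424, chromosome 10, 5180381 to 5183180) ran the other way, with 46.8, 63.8 and 67.2 normalised counts in DAN3130 and 0, 1.61 and 0 in JI63 on DAP 24, and 9.94, 6.72 and 45.3 in DAN3130 and 0.694, 4.88 and 0 in JI63 on DAP 35. Its difference was 5.43 ± 0.73, adjusted p = 3.51e-05 on DAP 24, and the one on DAP 35 was not called by edgeR or DESeq2, nor without replicate 3 of JI63. bZIP31 (mean 13.0) passed the filter of a mean above 10 only through JI63 on DAP 24, and bZIP109 (mean 13.7) only through DAN3130 on DAP 24. Their calls on that day are therefore not independent of the filter.

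On DAP 24 bZIP85 (Zm00001d006027, chromosome 2, 195561468 to 195570994) was also higher in DAN3130, with 388, 462 and 543 normalised counts in DAN3130 and 93.8, 88.4 and 133 in JI63 (2.14 ± 0.44, adjusted p = 0.00166), and bZIP45 was lower (-3.23 ± 0.53, adjusted p = 0.000239). At maturity bZIP125 (Zm00001d037170, chromosome 6, 114741532 to 114745764) held 0, 0 and 309.9 in DAN3130 and 369, 459.6 and 526 in JI63. This difference (-6.05 ± 1.498, adjusted p = 0.00511) rested on 2 DAN3130 libraries without reads, and neither edgeR nor DESeq2 called it.

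**Figure D5:**
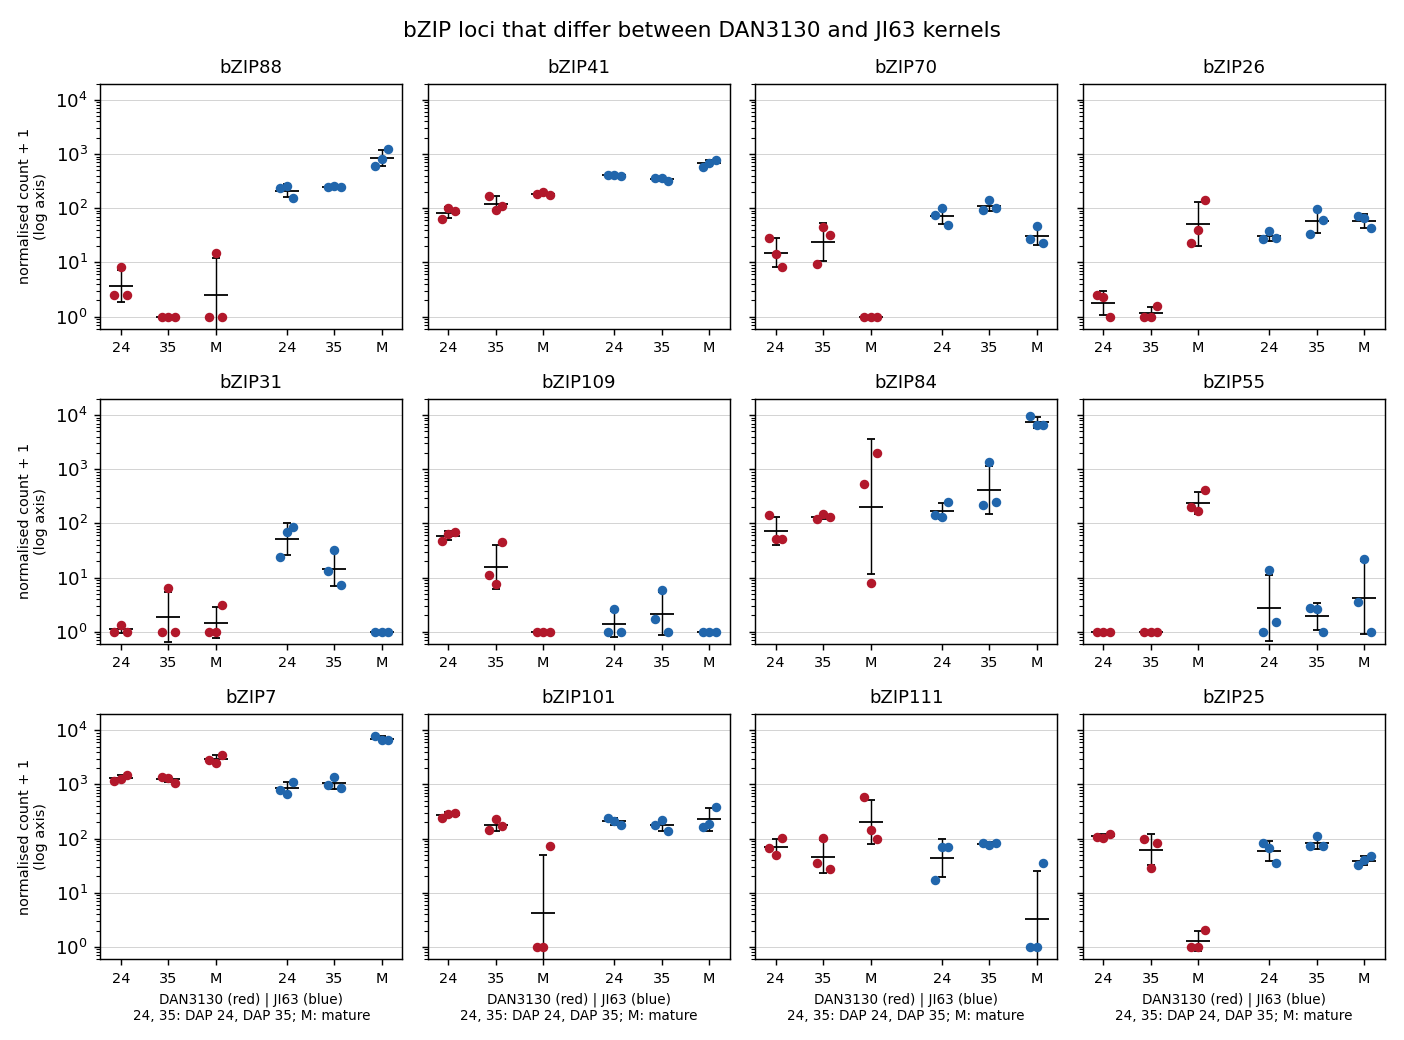
Normalised counts plus 1 (log axis) of 12 bZIP loci in each library, by stage, DAN3130 in red and JI63 in blue, with the mean ± SD of the log2 values of 3 libraries as bar and whiskers. bZIP88, bZIP41 and bZIP70 were called lower in DAN3130 at all 3 stages by limma (bZIP70 not by edgeR on DAP 35). bZIP84 ranged between 7.08 and 1977 in DAN3130 mature kernels, and bZIP55 held 170.0 to 410.3 in DAN3130 mature kernels and at most 20.7 elsewhere.

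Of the tested members, 20 were called in none of the 7 comparisons between groups by limma. The share of all tested loci called in none was not computed, so this count is not read as a trait of the family. Of the 20, edgeR called 1 (bZIP122) and DESeq2 called 3 (bZIP54, bZIP9 and bZIP122) in at least 1 comparison. With a variance for each group 8 of the 20 were called, and with library totals set equal 11. The highest mean level of these per kilobase was that of bZIP54 (Zm00001d022542, chromosome 7, 179748248 to 179754088). Another of them, bZIP34 (Zm00001d038189, chromosome 6, 150913450 to 150943935), held 973, 2015 and 1809.8 normalised counts in DAN3130 mature kernels, against 1865, 1919 and 1666 on DAP 35, and 1530.0, 1118 and 1207 in JI63 mature kernels, against 1768, 1499 and 1781 on DAP 35. Its log2 fold changes were -0.25 ± 0.22 in DAN3130 and -0.40 ± 0.22 in JI63, and with library totals set equal it was called lower at maturity in both lines. bZIP92, which RefSeq also lists as EEL, was among the 20, and its lowest and highest libraries held 0 and 50.4.

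bZIP transcription factor60 held 2068, 2228 and 2325 normalised counts on DAP 24, 2003, 1829 and 2221 on DAP 35 and 1511, 7484 and 6643 at maturity in DAN3130, and 2834, 2822 and 3729 on DAP 24, 1317, 1951 and 1319 on DAP 35 and 3060.1, 2383 and 2186 at maturity in JI63. Replicates 2 and 3 of DAN3130 mature kernels were the highest of all 18 and replicate 1 fell among the immature libraries. The rise in DAN3130 (1.07 ± 0.42, adjusted p = 0.043) was lost under 21 of 29 alternatives. Spliced and unspliced forms of its mRNA were not told apart by the counts. Genes of chaperones and folding enzymes that the unfolded protein response induces (protein disulfide isomerases, calreticulin and calnexins) made a list of 15 loci, of which 10 fell and 5 were not called in DAN3130 mature kernels relative to DAP 35, and 9 fell and 6 were not called in JI63, with median log2 fold changes of -1.14 in DAN3130 and -0.77 in JI63. Of all tested loci, 31.5% were lower in DAN3130 at this step and 27.8% in JI63.

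bZIP22, which is known to bind the promoter of the 27-kDa gamma-zein gene, and its neighbour bZIP47 were measured side by side. bZIP22 held 280.0, 74.4 and 338 normalised counts in DAN3130 mature kernels and 330.3, 226 and 469.8 in JI63 mature kernels, against 283, 114 and 232 in DAN3130 and 116, 129 and 93.4 in JI63 on DAP 35. Its rise in JI63 (1.54 ± 0.53, adjusted p = 0.0253) was not called with library totals set equal, nor without replicate 1 or 3 of either JI63 group, and in DAN3130 its groups overlapped (-0.03 ± 0.53). bZIP47 rose in both lines (0.57 ± 0.19, adjusted p = 0.0199 in DAN3130 and 1.33 ± 0.19, adjusted p = 3.97e-05 in JI63) as deposited, but in neither with library totals set equal. The opaque2 gene itself, which the selection leaves out and which codes for the bZIP activator of zein genes, held 4.83, 10.6 and 0 normalised counts in DAN3130 mature kernels, against 5187, 2865 and 3413 on DAP 35, and 0, 10.4 and 9.74 in JI63 mature kernels, against 1119, 725 and 538 on DAP 35. It fell by 9.83 ± 0.86 in log2 in DAN3130 and fell by 7.26 ± 0.86 in JI63, in step with the drop of the summed zein and starch genes given above, whose part in the result was not tested.

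The other lists gave the surroundings of the family, and their counts stand beside 19.2% of all tested loci higher and 31.5% lower in DAN3130 at this step, and 17.8% higher and 27.8% lower in JI63. Of 6 loci of dehydrins and late embryogenesis abundant proteins, which ABA induces and which protect drying tissue, 4 were higher and 2 lower in DAN3130 mature kernels than on DAP 35, and 3 higher and 2 lower in JI63. Dehydrin1 rose by 3.35 ± 0.30 in log2 in DAN3130 and by 4.40 ± 0.30 in JI63, and between DAP 24 and DAP 35 by 4.66 ± 0.30 in DAN3130 and by 2.08 ± 0.30 in JI63. Of 29 tested loci named for the ABA pathway (viviparous genes, SnRK2 kinases, ABA stress ripening genes, ABA 8'-hydroxylases and genes named as responsive to ABA), 9 were higher and 12 lower in mature kernels of each line. Of 5 tested bZIP loci under other names, 1 was higher (fasciated ear4) and 1 lower (opaque2) in DAN3130 at that step, and 3 were lower in JI63 (opaque2, fasciated ear4 and the G-box binding factor).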

How the data were processed

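Whole kernels of 2 maize inbred lines, DAN3130 and JI63, were sampled on DAP 24, on DAP 35 and at maturity, with 3 libraries per group. The study calls them biological replicates and does not say how pooled RNA relates to them, so p-values measure the spread between these libraries. The authors aligned reads without regard to strand to B73 AGPv4 with HISAT2 2.1.0, assembled loci with Cufflinks and Cuffcompare 2.2.1, counted with HTSeq 0.11.2 and normalised with DESeq2 (version not given in the sources used). The deposited signal is therefore a normalised count, and all values above 0 (100.0%) were whole multiples of 1 step per library within 0.1%, which gave back whole reads. Reads in loci were between 9428728 and 133264978 per library. The names and the expression table pair each locus with annotated genes, and 31 members matched a RefSeq name by number and chromosome. Intron entries (26258) were kept out of the tests.

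Loci with a mean above 10 (29191) were fitted with limma 3.58.1 in R 4.3.3 on log2(value + 1), with 6 groups, a mean-variance trend and a shared variance, and called at an adjusted p under 0.05. Contrasts were later minus earlier stage, DAN3130 minus JI63, and the JI63 change minus the DAN3130 change. Alternatives were other pseudocounts, filters and scalings, fits to fewer groups, a variance for each group, edgeR 4.0.16 and DESeq2 1.42.0 on the recovered reads, and leaving out each library. The fit was also run on simulated counts, with equal spread and with more variable mature libraries. The outcome is not given here, so no call rests on it. Replicates were numbered in accession order and were not paired. Members and lists (other bZIP names, ABA pathway, dehydrins, unfolded protein response, markers of starchy endosperm, transfer layer, oil bodies and green tissue) were chosen with earlier results of these data known. Named genes were the 10 most abundant members, the 3 largest called changes each way per comparison, members whose change differed between lines, and those with a well known role; others named were chosen after their values were seen. Sequences were not analysed here. Bounds for groups without reads use 3 reads over the group and cover counting error only.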

Additional observations from a re-analysis of the deposited data

Results flagged for a closer look

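For 9 bZIP loci the change between DAP 35 and maturity differed between the lines in a test of the difference itself (limma, adjusted over all tested loci, 3 libraries a group), and each is given as the JI63 change minus the DAN3130 change in log2. The difference was positive for bZIP7 (1.53 ± 0.31, adjusted p = 0.00408), bZIP83 (1.57 ± 0.44, adjusted p = 0.0277), bZIP101 (5.76 ± 1.58, adjusted p = 0.0239) and bZIP25 (4.53 ± 0.81, adjusted p = 0.00172). As deposited, bZIP7 and bZIP83 were called higher at maturity in both lines, and bZIP101 and bZIP25 were called lower in DAN3130 alone. The difference was negative for bZIP68 (-1.33 ± 0.25, adjusted p = 0.00274), bZIP111 (-6.75 ± 1.60, adjusted p = 0.0109), bZIP55 (-6.77 ± 1.46, adjusted p = 0.00595), bZIP26 (-5.42 ± 0.999, adjusted p = 0.00214) and bZIP31 (-3.53 ± 1.13, adjusted p = 0.0484). As deposited, bZIP68 was called higher at maturity in both lines, bZIP55 and bZIP26 higher in DAN3130 alone, and bZIP111 and bZIP31 lower in JI63 alone. For bZIP31, bZIP111, bZIP55, bZIP101, bZIP25 and bZIP26 at least 1 group had libraries without reads, so the size of the difference depends on the pseudocount. bZIP55 and bZIP31 passed the filter of a mean above 10 through 1 group each.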

How the results depend on the processing

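Numbers of called bZIP loci moved most with how the spread was estimated. With only the groups compared, calls became 10 (against 2) for DAN3130 and 17 (against 10) for JI63 between DAP 24 and DAP 35, 34 (against 16) between the lines on DAP 24, 8 (against 25) between them at maturity and 12 (against 0) for the difference in the early change. Calls among all 29191 tested loci were then 6005, 5058, 13516, 3663 and 4516 in the same order, against 1912, 2653, 7244, 10837 and 690. With only the 12 immature libraries the first 3 bZIP counts were 8, 27 and 29, with 20 (against 11) between the lines on DAP 35 and 12 for the early difference. Calls among all 29191 tested loci were then 6555, 7377, 12386, 11959 (against 6788) and 4516. A variance for each group gave 13 for DAN3130 and 25 for JI63 in the early step, 28 (against 47) for DAN3130 in the late step, 35, 20 and 11 between the lines on DAP 24, on DAP 35 and at maturity, 13 for the early difference and 2 (against 9) for the late one. The shares of all tested loci called were 23.4%, 24.1%, 29.5%, 48.4%, 35.6%, 15.2%, 14.7% and 4.59% in the same order. DESeq2 gave 8, 16 and 6 for the early DAN3130, early JI63 and early difference calls, and edgeR 5 for the late difference. Among all 29191 tested loci DESeq2 called 3346, 4260 and 1890, and edgeR 1921. A fold of 2 with an unadjusted p gave 8 for early DAN3130, 8 for the early difference and 17 for the late one, and a pseudocount of 5 gave 5 for early DAN3130. Among all 29191 tested loci these gave 3376, 2920, 7351 and 2259. With library totals set equal bZIP68 turned to -0.40 in JI63 between DAP 35 and maturity. Leaving out 1 library gave 1 to 5 and 8 to 16 calls in the early step of DAN3130 and JI63, 42 to 50 and 34 to 52 in the late step, 11 to 20, 8 to 14 and 21 to 35 between the lines on DAP 24, on DAP 35 and at maturity, 0 to 2 for the early difference and 7 to 16 for the late one. The lowest early DAN3130 count came without replicate 2 of DAP 24 or DAP 35, and 5 came without DAN3130 mature replicate 1 or 2, 4 without its replicate 3, while the highest early JI63 count came without DAN3130 mature replicate 1. The highest late difference came without DAN3130 mature replicate 3. Shares of all tested loci are not given beside these ranges, so they are not read as results about the family. Leaving out loci with more than 1 gene name or annotated gene, chosen after seeing the data, left 2, 10, 44, 41, 15, 10, 22, 0 and 9 calls of 82 tested, in the order of the comparisons just named. For the named genes, 92 calls gave 2694 values under alternatives, of which 2509 kept the call, 184 lost it and 1 reversed, and 51 calls were kept throughout. The cause of these shifts was not tested. No paired analysis was possible because the labels give no shared replicate numbers. Depth limits the shallowest library to 1 read in 3.54 normalised counts.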
